A study of Mus musculus with 22 samples.

Results

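The genes described here were 40 antiviral interferon-stimulated genes, named from general knowledge of the type I interferon response, with earlier results of these data known, and looked up on the array through the RefSeq accession that each probe carries. A usable probe was found for 38 of the 40 genes, out of 22378 genes measured in all. The remaining pair, Mx1 and Mx2, are antiviral GTPases whose symbols could not be matched to a probe, and they are not described.

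Type I interferons are secreted when cells sense viral nucleic acid or bacterial lipopolysaccharide (LPS). In macrophages, LPS binds Tlr4, the adaptor Ticam1 (TRIF) leads through the kinases Tbk1 and Ikbke to the transcription factor Irf3, and Irf3 switches on Ifnb1, the gene of interferon beta. Secreted interferon binds its receptor (Ifnar1 and Ifnar2), the kinases Jak1 and Tyk2 pass the signal on, and a complex that contains Stat2 and Irf9 binds the interferon-stimulated response element (ISRE) of antiviral genes. Some of these genes, such as Ifit1, Rsad2 and Isg15, can also be switched on by Irf3 directly, without secreted interferon.

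The study asked which transcripts of the macrophage response to LPS depend on MK2 and MK3, the protein kinases downstream of p38 that are encoded by Mapkapk2 and Mapkapk3. Bone marrow-derived macrophages (BMDM) were grown with M-CSF from the femurs of C57BL/6 mice labelled as male and 10 to 14 weeks old. Wild-type (wt) BMDM, BMDM lacking MK2 (MK2-/-) and BMDM lacking both kinases (MK2/3-/-) received either LPS at 100 ng/ml or medium alone for 360 min. The 22 single-colour arrays comprised 4 of wt medium, 3 of wt LPS, 4 of MK2-/- medium, 4 of MK2-/- LPS, 3 of MK2/3-/- medium and 4 of MK2/3-/- LPS, from experiments that the study describes as independent, and these numbers are the n of every group mean below. No line lacking MK3 alone was analysed here.

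All arrays of a genotype lay on a slide of their own, so genotype and slide cannot be told apart, whereas medium and LPS arrays of a genotype shared a slide. Levels are log2 intensities of 1 probe per gene after quantile normalisation, which gives every array the same set of spot values, so a level is relative to the other genes of that array and levels of different probes are not set against each other. Mapkapk2 averaged 11.90 ± 0.77 (SD) in wt medium and 8.88 ± 0.13 in MK2-/- medium, and Mapkapk3 averaged 13.13 ± 0.26 in wt medium and 11.16 ± 0.23 in MK2/3-/- medium, so each targeted gene was lower where the labels say it is deleted, with its probe still above background. Of 7 macrophage markers 6 could be matched (Adgre1, Csf1r, Itgam, Mertk, Lyz2 and Cd14), and their summed level lay between 18.69 and 19.51 on every array. The 4 markers of plasmacytoid dendritic cells, which secrete much interferon, were each above background on at least 1 array of every group, with a summed level of 15.72 to 17.29. The 3 fibroblast markers varied widely within groups (8.68 to 16.64 over all arrays). The 4 matched markers of T and NK cells summed to 9.75 to 10.65 in wt medium, 11.06 to 12.26 in MK2-/- medium and 10.48 to 11.06 in MK2/3-/- medium. With LPS these sums were 10.78 to 11.36 in wt, 11.65 to 12.08 in MK2-/- and 10.73 to 11.85 in MK2/3-/- BMDM. The 5 markers of neutrophils and precursors summed to 11.20 to 11.66 in wt and 11.79 to 12.51 in MK2/3-/- BMDM. In MK2-/- BMDM they spanned both ranges, with 11.35 to 12.65 in medium and 10.95 to 11.59 with LPS. The part of these other cells in the members' levels was not tested. On MK2-/- LPS replicate 3 and MK2-/- medium replicate 3 the Y-linked genes Ddx3y and Eif2s3y lay between 1.99 and 3.31, against 10.09 or more on the other 20 arrays, which goes against the label male. MK2-/- LPS replicate 3 also had 2927 spots marked as outliers by the scanner software, against 115 to 261 on the others. Without both arrays of low Y-linked signal, the count of members that passed the test was unchanged in all 12 comparisons.

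LPS raised nearly the whole set in every genotype. After 360 min, 37 of the 38 members were higher than in medium in wt BMDM at an adjusted p below 0.05 (limma, Benjamini-Hochberg over all genes), where 42.1% of all genes passed in either direction and 18.6% passed as higher. The count was also 37 in MK2-/- BMDM, against 44.6% and 17.5% of all genes, and 37 in MK2/3-/- BMDM, against 48.2% and 20.2%. In the other direction it was 0 of 38 in every genotype, against 23.5%, 27.1% and 27.9% of all genes, and Trim25 was the exception each time. For each of the 37, every LPS array of a genotype lay above every medium array of that genotype, which was the case for 22.1% of all genes in wt, 17.4% in MK2-/- and 21.4% in MK2/3-/- BMDM. The median response of the 38 members was 3.50 on the log2 scale in wt, 3.62 in MK2-/- and 3.51 in MK2/3-/- BMDM, while the median over all genes was −0.04, −0.01 and 0.01. Scaling each array to its 75th percentile instead moved the median of all genes to 0.30, 0.28 and 0.29 and the members' medians to 3.99, 4.11 and 4.03. Because bulk RNA was measured, more expressing cells and more RNA per cell cannot be told apart.

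**Figure D1:**
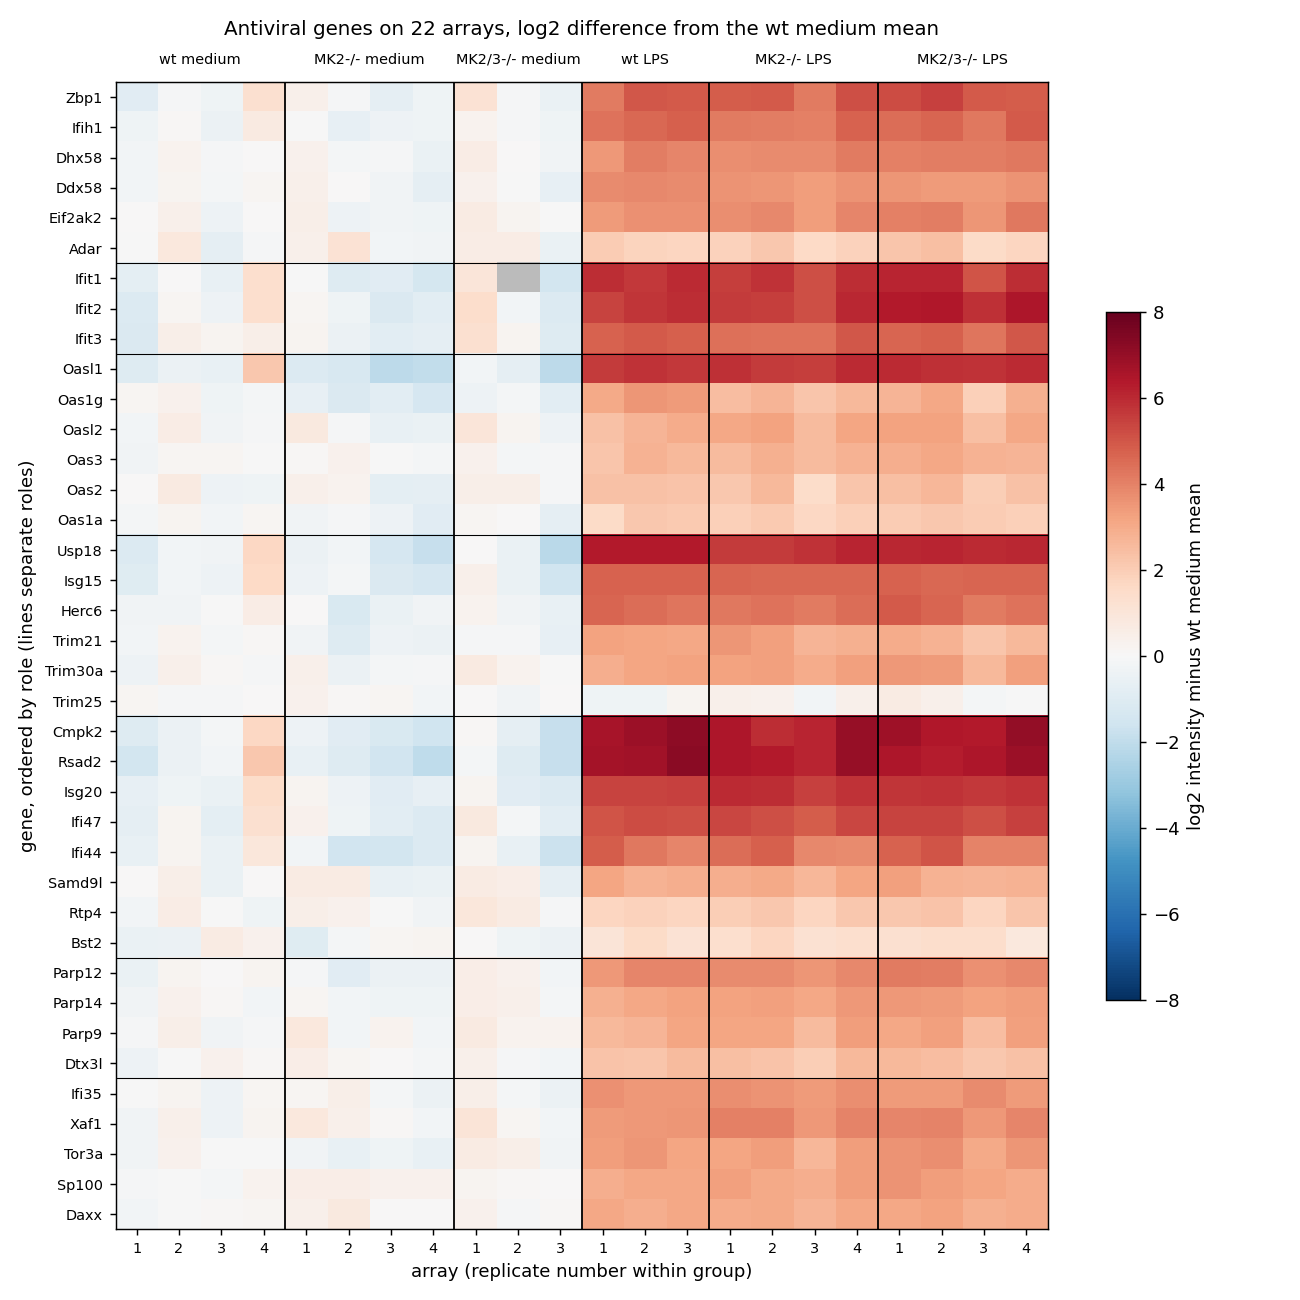
Each row is an antiviral gene and each column 1 of the 22 arrays, coloured by its log2 intensity minus the mean of the wt medium arrays; black lines separate groups and roles, and grey marks the array on which Ifit1 was not measured. The LPS arrays of all 3 genotypes are red for every gene except Trim25, and wt medium replicate 4 stands out from the other medium arrays for Oasl1, Usp18, Isg15, Cmpk2, Rsad2 and Isg20.

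The promoters of the genes at both ends of the range are printed from the RefSeq table (GRCm38.p6), together with those of Isg15, Ifit1 and Oas1g, to show the element through which interferon acts. Windows of 250 bases before to 50 after the start site were found for 30 of the 38 members, and Dhx58, Oas2, Parp14, Parp9, Rtp4, Tor3a, Usp18 and Zbp1 had none. Each window was searched on both strands for the ISRE core, which is GAAA, any pair of bases and GAAA again, and for the gamma-activated site TTCNNNGAA, a palindromic element of interferon-responsive genes. The ISRE core was present in the windows of 13 of the 30 members, and in 3.99% of the 27025 genes with a window (3.44% of 32851 windows). The gamma-activated site was present in those of 7 of the 30 members, and in 9.55% of all genes (8.3% of windows). Matches of the different motifs overlapped only in Bst2, where an ISRE core and a gamma-activated site shared 3 bases. Sequences run 5′ to 3′ on the strand of the gene, and capitals mark the ISRE core on either strand. Rsad2 lies at chr12:26456403-26456702 (minus strand) and Cmpk2 at chr12:26468965-26469264 (plus strand), so these neighbours point away from each other with start sites 12763 bases apart. Isg15 lies at chr4:156200769-156201068 (minus), Ifit1 at chr19:34640639-34640938 (plus), Oas1g at chr5:120887564-120887863 (minus), Bst2 at chr8:71537423-71537722 (minus) and Trim25 at chr11:88999153-88999452 (plus).
Rsad2: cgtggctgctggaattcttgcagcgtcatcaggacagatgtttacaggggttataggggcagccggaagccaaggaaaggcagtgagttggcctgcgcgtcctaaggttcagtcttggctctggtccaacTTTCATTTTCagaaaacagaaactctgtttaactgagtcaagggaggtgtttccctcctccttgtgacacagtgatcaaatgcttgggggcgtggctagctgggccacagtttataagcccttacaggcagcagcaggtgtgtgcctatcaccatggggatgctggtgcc
Cmpk2: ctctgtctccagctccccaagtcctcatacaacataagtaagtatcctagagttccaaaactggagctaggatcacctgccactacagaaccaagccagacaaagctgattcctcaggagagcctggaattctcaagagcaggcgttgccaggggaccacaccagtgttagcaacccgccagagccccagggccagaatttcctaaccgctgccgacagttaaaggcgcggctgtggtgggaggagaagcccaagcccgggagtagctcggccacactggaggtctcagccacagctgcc
Isg15: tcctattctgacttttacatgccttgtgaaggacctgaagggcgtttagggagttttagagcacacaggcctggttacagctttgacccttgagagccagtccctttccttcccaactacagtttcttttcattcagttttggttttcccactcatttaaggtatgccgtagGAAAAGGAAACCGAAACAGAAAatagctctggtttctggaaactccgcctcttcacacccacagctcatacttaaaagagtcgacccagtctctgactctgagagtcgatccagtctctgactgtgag
Ifit1: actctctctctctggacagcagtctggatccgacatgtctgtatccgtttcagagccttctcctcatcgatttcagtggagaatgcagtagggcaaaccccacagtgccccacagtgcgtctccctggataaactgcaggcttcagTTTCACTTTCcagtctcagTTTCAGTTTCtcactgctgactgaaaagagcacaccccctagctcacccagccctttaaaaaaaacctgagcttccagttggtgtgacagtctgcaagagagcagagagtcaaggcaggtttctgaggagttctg
Oas1g: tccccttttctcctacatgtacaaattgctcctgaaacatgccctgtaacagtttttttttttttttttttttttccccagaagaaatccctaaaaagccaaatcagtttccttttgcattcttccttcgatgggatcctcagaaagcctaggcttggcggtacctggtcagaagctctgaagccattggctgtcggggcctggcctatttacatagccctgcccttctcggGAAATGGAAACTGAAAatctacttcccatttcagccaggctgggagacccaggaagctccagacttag
Bst2: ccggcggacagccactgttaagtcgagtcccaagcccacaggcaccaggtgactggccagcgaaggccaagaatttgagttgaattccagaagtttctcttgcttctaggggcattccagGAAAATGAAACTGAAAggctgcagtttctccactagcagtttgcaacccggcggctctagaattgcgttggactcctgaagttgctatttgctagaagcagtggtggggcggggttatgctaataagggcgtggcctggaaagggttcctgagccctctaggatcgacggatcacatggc
Trim25: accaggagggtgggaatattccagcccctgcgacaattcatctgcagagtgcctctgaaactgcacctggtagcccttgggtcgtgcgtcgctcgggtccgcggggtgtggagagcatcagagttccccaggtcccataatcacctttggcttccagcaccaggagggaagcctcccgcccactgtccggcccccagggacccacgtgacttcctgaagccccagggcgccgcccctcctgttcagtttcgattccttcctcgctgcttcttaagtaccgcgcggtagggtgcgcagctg

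The Isg15 window held 3 overlapping copies of the core, the first of them starting 78 bases before the start site. Bst2 and Oas1g held 2 overlapping copies each, Ifit1 2 separate copies and Rsad2 1 copy, while the Cmpk2 and Trim25 windows held none. The presence of the core did not separate large from small responses among the members. In wt BMDM the 13 members with a match had a median LPS response of 3.56 on the log2 scale (1.23 to 6.87), and the 17 with a window but no match had a median of 3.52 (−0.15 to 6.87).

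The 3 largest responses in wt BMDM belonged to Cmpk2, Rsad2 and Usp18. Cmpk2 encodes a mitochondrial nucleotide kinase and is the genomic neighbour of Rsad2. On the medium arrays of wt BMDM its level was 9.06, 9.60, 9.89 and 11.71, and on the LPS arrays 16.68, 16.92 and 17.22. In MK2-/- BMDM it read 9.68, 9.15, 8.83 and 8.49 in medium and 16.52, 15.99, 16.18 and 17.07 with LPS, and in MK2/3-/- BMDM 10.16, 9.35 and 8.22 in medium and 16.83, 16.45, 16.39 and 17.08 with LPS. Medium and LPS arrays were far apart in every genotype, and the LPS levels of the genotypes overlapped. The LPS response of Cmpk2 was 6.87 on the log2 scale in wt (117-fold, SE 0.50, limma adjusted p = 4.82e-09), 7.40 in MK2-/- and 7.44 in MK2/3-/- BMDM.

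Rsad2 encodes viperin, an enzyme that makes a chain-terminating nucleotide and so blocks viral RNA synthesis. Its wt medium arrays read 9.31, 10.27, 10.53 and 12.89, and its wt LPS arrays 17.43, 17.46 and 17.95. Its MK2-/- arrays read 10.15, 9.72, 9.20 and 8.71 in medium and 17.25, 17.06, 16.86 and 17.70 with LPS, and its MK2/3-/- arrays 10.59, 9.73 and 8.91 in medium and 17.21, 17.04, 17.21 and 17.62 with LPS. The LPS levels of the 3 genotypes overlapped, and the widest spread was among the wt medium arrays. The response was 6.87 in wt (117-fold, SE 0.58, limma adjusted p = 2.40e-08), 7.77 in MK2-/- and 7.53 in MK2/3-/- BMDM. Without wt medium replicate 4, the Rsad2 response in wt was 7.58.

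Usp18 removes ISG15 from proteins and damps signalling at the interferon receptor. Its wt arrays read 9.25, 10.14, 10.05 and 11.98 in medium and 16.70, 16.72 and 16.70 with LPS. Its MK2-/- arrays read 9.89, 10.13, 9.01 and 8.51 in medium and 15.92, 15.94, 16.12 and 16.44 with LPS, and its MK2/3-/- arrays 10.38, 9.83 and 8.17 in medium and 16.41, 16.46, 16.35 and 16.40 with LPS. The 3 wt LPS arrays lay above all LPS arrays of both knockouts. The response was 6.35 in wt (81.7-fold, SE 0.53, limma adjusted p = 2.06e-08), 6.72 in MK2-/- and 6.95 in MK2/3-/- BMDM, the last of which was 6.30 without MK2/3-/- medium replicate 3.

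At the other end, Rtp4, a receptor transporter with antiviral activity, read 14.72, 15.49, 14.92 and 14.58 on the wt medium arrays and 16.65, 16.77 and 16.64 on the wt LPS arrays. Bst2, which encodes tetherin, a membrane protein that holds budding virions at the cell surface, read 14.66, 14.74, 15.82 and 15.51 in wt medium and 16.21, 16.71 and 16.33 in wt LPS. For both, every wt LPS array lay above every wt medium array. Rtp4 read 15.40, 15.30, 14.92 and 14.67 in MK2-/- medium, 16.91, 17.07, 16.63 and 17.11 in MK2-/- LPS, 15.81, 15.61 and 14.84 in MK2/3-/- medium and 17.10, 17.19, 16.63 and 17.13 in MK2/3-/- LPS. Bst2 read 14.21, 15.04, 15.35 and 15.41 in MK2-/- medium, 16.53, 16.88, 16.39 and 16.54 in MK2-/- LPS, 15.20, 14.83 and 14.71 in MK2/3-/- medium and 16.46, 16.57, 16.58 and 16.03 in MK2/3-/- LPS. Medium and LPS arrays were separate in both knockouts as well. Rtp4 rose by 1.76 in wt (3.39-fold, limma adjusted p = 1.69e-05), 1.86 in MK2-/- and 1.59 in MK2/3-/- BMDM, and Bst2 by 1.23 (2.35-fold, limma adjusted p = 0.00256), 1.58 and 1.50.

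Trim25, the ubiquitin ligase that acts with RIG-I, was the member that LPS did not raise. Its wt arrays read 15.57, 15.29, 15.31 and 15.47 in medium and 15.08, 15.04 and 15.64 with LPS. In MK2-/- BMDM they read 15.72, 15.49, 15.54 and 15.20 in medium and 15.82, 15.77, 15.16 and 15.79 with LPS, and in MK2/3-/- BMDM 15.41, 15.13 and 15.42 in medium and 16.08, 15.84, 15.27 and 15.35 with LPS. Medium and LPS arrays overlapped in all genotypes. The response was −0.15 in wt (95% interval −0.62 to 0.31), 0.14 in MK2-/- (−0.29 to 0.58) and 0.32 in MK2/3-/- BMDM (−0.15 to 0.78). Trim25 passed the test in all genotypes under 75th percentile scaling, where 38 of 38 members were called higher.

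**Figure D2:**
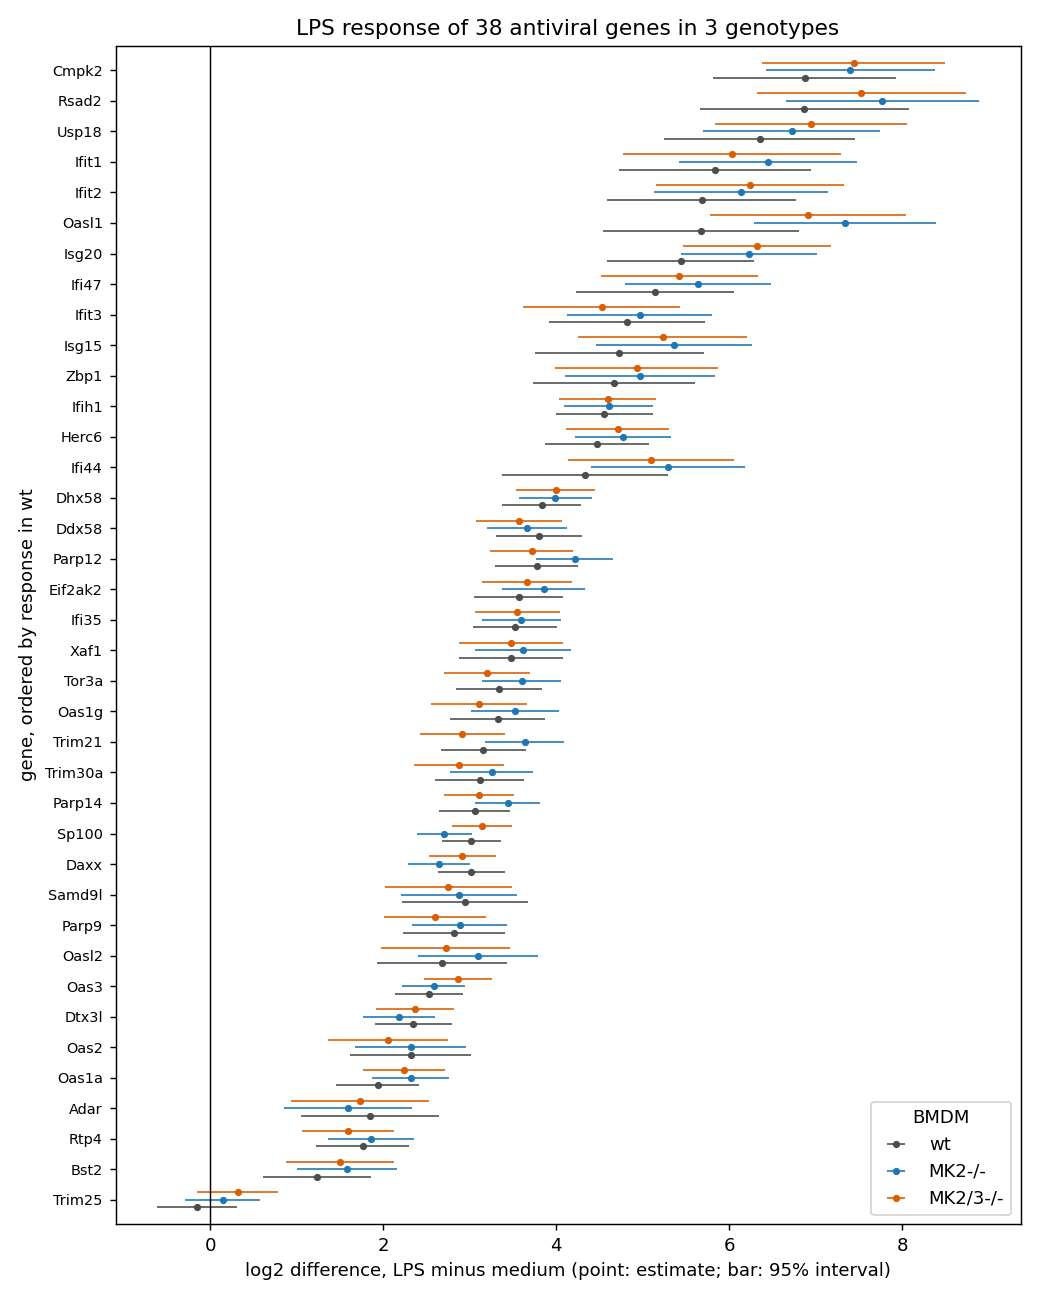
Points give the log2 difference between LPS and medium for each of the 38 genes in wt (grey), MK2-/- (blue) and MK2/3-/- (orange) BMDM, and bars the 95% interval from the fit; genes are ordered by the wt response. The genes run from Cmpk2 at the top (6.87 in wt) to Trim25, whose intervals include 0.

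The 6 genes grouped as sensors of viral nucleic acid, with the RNA-editing gene Adar counted among them, all rose. Their median response was 3.81 in wt, 3.92 in MK2-/- and 3.83 in MK2/3-/- BMDM. Zbp1, a sensor of Z-form nucleic acid that can start necroptosis, went from 10.66 ± 0.93 in wt medium to 15.33 ± 0.46 in wt LPS. Ifih1 (MDA5), which senses long double-stranded RNA, went from 11.43 ± 0.53 to 15.99 ± 0.24, and Ddx58 (RIG-I), which senses short triphosphate RNA, from 12.02 ± 0.22 to 15.82 ± 0.03. Their responses were 4.66, 4.56 and 3.80 in wt, 4.96, 4.61 and 3.66 in MK2-/-, and 4.93, 4.59 and 3.57 in MK2/3-/- BMDM. Dhx58 (LGP2), a regulator of both RNA sensors, rose by 3.83, 3.99 and 3.99 in the same order. Eif2ak2 (PKR), the kinase that stops translation when it binds double-stranded RNA, rose by 3.56, 3.85 and 3.67. Adar, which edits adenosine to inosine in double-stranded RNA, had the smallest response of these 6 genes, with 1.85, 1.59 and 1.73.

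The IFIT proteins bind viral RNA and block its translation, and their genes were among the strongest responders. Ifit1 read 9.19, 9.99, 9.40 and 11.32 in wt medium and 15.87, 15.61 and 15.95 in wt LPS. Ifit2 read 9.35, 10.58, 10.04 and 11.81 in wt medium and 15.86, 16.18 and 16.35 in wt LPS, and Ifit3 went from 12.42 ± 0.76 to 17.23 ± 0.11. The responses of Ifit1, Ifit2 and Ifit3 were 5.83, 5.68 and 4.82 in wt, 6.45, 6.14 and 4.96 in MK2-/-, and 6.03, 6.24 and 4.53 in MK2/3-/- BMDM. The Ifit1 spot of MK2/3-/- medium replicate 2 was marked as an outlier and left out, so that group mean of 9.73 ± 1.76 rests on the other 2 arrays. The MK2/3-/- response of Ifit1 was 7.27 without medium replicate 1 of that group and 4.79 without medium replicate 3, that of Ifit2 was 6.92 without replicate 1, and that of Ifit3 was 3.93 without replicate 3.

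The oligoadenylate synthetase (OAS) family detects double-stranded RNA, and its active enzymes make the messenger that switches on the nuclease RNase L. The 6 members all rose but over a wide range. Oasl1, which lacks synthetase activity and is known to restrain Irf7 translation, had the largest response, with 5.68 in wt, 7.34 in MK2-/- and 6.91 in MK2/3-/- BMDM, and 6.39 in wt without wt medium replicate 4. Its paralogue Oasl2 rose by 2.68, 3.10 and 2.72. Oas1g rose by 3.32, 3.53 and 3.11 and Oas1a by 1.93, 2.32 and 2.24, and Oas1g averaged 5.45 ± 0.32 in wt medium. With normexp background correction the Oas1g responses were 2.22, 1.83 and 1.80. The genes of the mouse Oas1 cluster are close copies of each other, and cross-hybridisation between them was not tested. Oas3 rose by 2.52, 2.58 and 2.87 and Oas2 by 2.31, 2.31 and 2.06.

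Isg15, the ubiquitin-like modifier that gives the ISG15 system its name, rose in every genotype, and its normalised level varied little between LPS cultures. It read 12.87, 13.63, 13.45 and 15.41 in wt medium and 18.57, 18.54 and 18.59 in wt LPS. Its MK2-/- LPS arrays read 18.48, 18.42, 18.45 and 18.45 and its MK2/3-/- LPS arrays 18.57, 18.46, 18.50 and 18.50, and no spot on any array was saturated. Among all genes Isg15 ranked 3 to 6 on the wt, 6 to 12 on the MK2-/- and 3 to 14 on the MK2/3-/- LPS arrays. Quantile normalisation gives these top ranks nearly the same values on every array. The scale therefore limits both the spread of Isg15 under LPS and its differences between genotypes there. The response of Isg15 was 4.73 in wt, 5.36 in MK2-/- and 5.23 in MK2/3-/- BMDM. Herc6, the mouse ligase that attaches ISG15, rose by 4.47, 4.78 and 4.71. Trim21, an antibody receptor and ubiquitin ligase of the cytosol, rose by 3.16, 3.63 and 2.92, and Trim30a, a negative regulator of Toll-like receptor signalling, by 3.11, 3.26 and 2.88.

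Among the other effectors, Isg20, an exonuclease that degrades viral RNA, rose by 5.44 in wt, 6.23 in MK2-/- and 6.32 in MK2/3-/- BMDM. Ifi47, an immunity-related GTPase, rose by 5.14, 5.64 and 5.42, and Ifi44 by 4.33, 5.29 and 5.09. Samd9l, a restriction factor of poxviruses, rose by 2.94, 2.88 and 2.75. Parp12, Parp14 and Parp9 belong to the ADP-ribosyltransferase family and Dtx3l is the ubiquitin ligase that pairs with Parp9. Parp12 rose by 3.78, 4.21 and 3.72, Parp14 by 3.06, 3.44 and 3.11, Parp9 by 2.82, 2.88 and 2.60 and Dtx3l by 2.35, 2.18 and 2.37. The last 5 members stayed close together. Ifi35 rose by 3.52, 3.60 and 3.55, Xaf1, an antagonist of apoptosis inhibitors, by 3.48, 3.61 and 3.48, and Tor3a, an ATPase of the endoplasmic reticulum, by 3.34, 3.60 and 3.20. Sp100 and Daxx, components of PML nuclear bodies, rose by 3.02, 2.70 and 3.14 and by 3.02, 2.64 and 2.91.

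Of the 14 members with more than 1 kept probe, Xaf1 was the one whose second probe did not pass the test for the LPS response. That probe, with a mean level of 6.45 over all arrays, gave 0.69, 0.65 and 0.62 in wt, MK2-/- and MK2/3-/- BMDM, with limma adjusted p of 0.0722, 0.066 and 0.1. Choosing the probe of largest response instead moved Isg15 to 5.53, 6.61 and 6.64 in the same order. It also moved Zbp1 to 6.14 and 5.93 and Adar to 2.43 and 2.54 in MK2-/- and MK2/3-/- BMDM. That Adar probe gave 2.26 in wt BMDM, next to 1.85 for the main probe. Its response was 0.17 larger in MK2-/- and 0.29 larger in MK2/3-/- than in wt BMDM, and neither difference passed the test.

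No member passed a test between genotypes under LPS by its main probe, and a second Herc6 probe that did is described below. With LPS, 0 of 38 members passed the test between MK2-/- and wt BMDM, where 11.6% of all genes passed (limma, adjusted p below 0.05), and 1 member, Oas1g, had an unadjusted p below 0.05. Between MK2/3-/- and wt BMDM it was 0 of 38, against 23.6% of all genes, with 2 members, Oas1g and Trim21, at an unadjusted p below 0.05. Between MK2/3-/- and MK2-/- BMDM it was 0 of 38, against 13.5%, with 0 at an unadjusted p below 0.05. The fit has 1 spread per gene over all groups. The members' median SD was 0.40 to 0.50 in medium and 0.18 to 0.26 with LPS. For all genes it was 0.25 to 0.35 and 0.33 to 0.45. Scatter in medium therefore weighs more on the LPS tests of the members than on those of all genes. The unadjusted t-test that the methods name gave 4, 7 and 2 of 38 in these comparisons, and 0, 1 and 0 after Benjamini-Hochberg adjustment. The members' median difference was −0.02 for MK2-/- against wt, 0.10 for MK2/3-/- against wt and 0.13 for MK2/3-/- against MK2-/-. The direction of the second value depended on the scaling, because 75th percentile scaling gave −0.21, −0.09 and 0.17, with the median of all genes at 0.03, 0.15 and −0.02. The first value was 0.01 with the values of the authors' deposited table, so its direction depended on the processing too.

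A missed threshold does not show equal levels, so the intervals are given. The 95% interval of the difference stayed within 2-fold in either direction for 24 of 38 members between MK2-/- and wt (40.3% of all genes), for 23 between MK2/3-/- and wt (34.7%) and for 29 between MK2/3-/- and MK2-/- (46.1%). Over all 38 members, the bounds reached from −1.71 to 1.20 in the first comparison and from −1.56 to 1.67 in the second. The widest intervals belonged to genes whose medium arrays scattered most, since each gene has 1 spread over all groups in the fit. Rsad2 differed by −0.40 (−1.61 to 0.81) between MK2-/- and wt and by −0.35 (−1.56 to 0.86) between MK2/3-/- and wt.

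**Figure D3:**
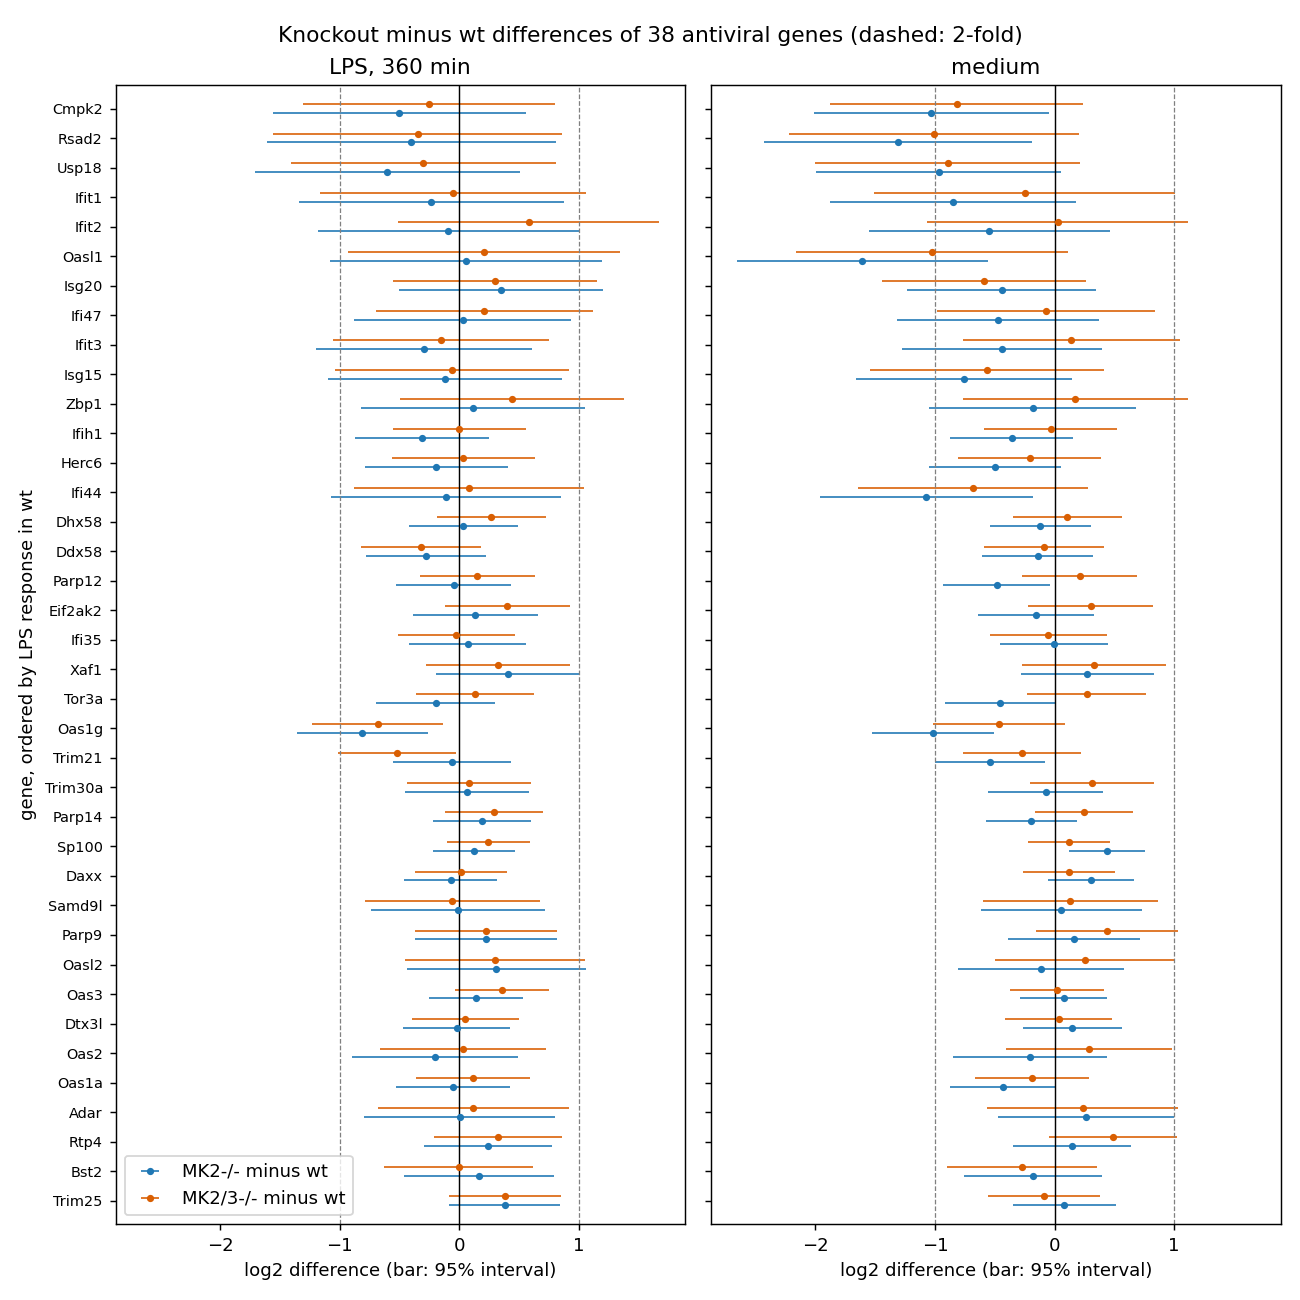
Points give the log2 difference of each knockout from wt BMDM for the 38 genes, with LPS on the left and in medium on the right, and bars the 95% interval; dashed lines mark 2-fold. With LPS most points lie within 0.5 of 0 and Oas1g is lowest (−0.81 and −0.68), while in medium Oasl1 (−1.61 in MK2-/-) and several of the most inducible genes lie left of 0.

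Some members had LPS arrays that did not overlap between genotypes, although none passed the test. In MK2-/- BMDM, Ddx58, Isg15, Oas1g and Usp18 were below all wt arrays (4 of 38, against 15.3% of all genes) and 0 of 38 were above (against 12.5%). Ddx58 read 15.83, 15.84 and 15.78 in wt and 15.60, 15.52, 15.39 and 15.63 in MK2-/- BMDM, a difference of −0.28 (95% interval −0.78 to 0.22). Usp18 differed by −0.60 (−1.71 to 0.51) and Isg15 by −0.12 (−1.10 to 0.86). In MK2/3-/- BMDM, Ddx58, Trim21 and Usp18 lay below all wt arrays (3 of 38, against 15.8%), and Isg20 and Parp14 above them (2 of 38, against 12.4%). Trim21 read 14.30, 14.20 and 14.13 in wt and 14.01, 13.83, 13.26 and 13.67 in MK2/3-/- BMDM, a difference of −0.52 (−1.01 to −0.02, limma adjusted p = 0.118). Ifit2 was the member with the highest difference, reading 16.78, 16.84, 16.27 and 16.94 in MK2/3-/- BMDM against 15.86, 16.18 and 16.35 in wt, or 0.58 (−0.51 to 1.67). Between MK2/3-/- and MK2-/- BMDM no member was separated in either direction (against 8.64% of all genes higher and 5.67% lower).

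Oas1g was the member nearest to the threshold under LPS. It read 8.49, 8.98 and 8.83 in wt, 7.92, 8.19, 7.66 and 8.06 in MK2-/-, and 8.17, 8.51, 7.38 and 8.28 in MK2/3-/- BMDM. The MK2-/- arrays lay below the wt arrays, and 1 MK2/3-/- array overlapped with them. It differed from wt by −0.81 in MK2-/- (SE 0.26, limma adjusted p = 0.0514) and by −0.68 in MK2/3-/- BMDM (limma adjusted p = 0.0671). In medium it read 5.61, 5.80, 5.11 and 5.26 in wt, 4.76, 4.26, 4.59 and 4.11 in MK2-/-, and 5.03, 5.32 and 4.59 in MK2/3-/- BMDM, with no overlap between wt and MK2-/- arrays.

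In medium, Oas1g was also the single member that passed a test between genotypes by its main probe. MK2-/- BMDM had less Oas1g than wt BMDM, a difference of −1.02 on the log2 scale (95% interval −1.52 to −0.51, SE 0.24, limma adjusted p = 0.0172), 1 of 38 members where 8.82% of all genes passed in either direction and 3.11% as lower, and 9 members had an unadjusted p below 0.05 (4 without wt medium replicate 4). It was above background on 2 of the 4 MK2-/- medium arrays. The call was lost under 75th percentile scaling, under another background correction, with the methods' t-test after adjustment, and without wt medium replicate 1 or MK2-/- medium replicate 2. A second Oas1g probe, with a mean level of 3.80 over all arrays, gave a difference of 0.52 in the opposite direction (limma adjusted p = 0.429).

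Between MK2/3-/- and wt BMDM in medium, 0 of 38 members passed (against 2.02% of all genes) and 0 had an unadjusted p below 0.05. Between MK2/3-/- and MK2-/- BMDM it was 0 of 38 (against 2.82%), with 3 at an unadjusted p below 0.05. The members' median difference in medium was −0.20 for MK2-/- against wt, with 28 of 38 lower, 0.02 for MK2/3-/- against wt and 0.28 for MK2/3-/- against MK2-/-. Under 75th percentile scaling these were −0.39, −0.17 and 0.23, so the direction of the second depended on the scaling. Members without overlap in medium were Oas1g, Oasl1, Tor3a and Trim21 below wt (4 of 38, against 7.54%) and Sp100 above wt (1 of 38, against 13.1%) in MK2-/- BMDM. In MK2/3-/- BMDM none was separated from wt (against 13% higher and 11% lower), and Sp100 lay below the MK2-/- arrays (1 of 38, against 10.9%) and none above them (against 6.99%).

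The difference in medium included its largest values among strongly induced genes, and these depended on 1 wt culture. Oasl1 read 11.08, 11.62, 11.49 and 14.23 in wt medium, 11.03, 10.82, 10.00 and 10.14 in MK2-/- medium and 11.88, 11.35 and 10.01 in MK2/3-/- medium. Wt replicate 4 stood far above the other 10 medium arrays. The difference of Oasl1 between MK2-/- and wt was −1.61 (95% interval −2.66 to −0.56, limma adjusted p = 0.0519), and −0.90 without wt medium replicate 4 (limma adjusted p = 0.117).

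The same culture was the highest of its group for 16 of 38 members. It read 15.41 for Isg15 against 12.87 to 13.63 in the other 3 wt medium cultures, 12.89 against 9.31 to 10.53 for Rsad2, and 12.89 against 10.76 to 11.08 for Isg20. It was not raised for every member, since wt medium replicate 2 was the highest for 18 members, Rtp4 and Oas2 among them. Ifnb1 read 4.64 on wt medium replicate 4 and 4.59, 3.73 and 2.04 on the others of that group. Without it the median difference in medium was −0.12 between MK2-/- and wt BMDM and 0.16 between MK2/3-/- and wt BMDM.

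Many members shared their highest or lowest array in the other groups too. For these counts, and for those of wt medium above, the share of all genes was not computed. They are therefore not shown to be particular to the members. In MK2/3-/- medium, replicate 1 was the highest for 34 of the 37 members measured on all 3 arrays and replicate 3 the lowest for 33. In MK2-/- medium, replicate 1 was the highest for 29 of 38. With LPS, MK2-/- replicate 3 was the lowest for 33 of 38 members and MK2/3-/- replicate 3 for 29. MK2-/- LPS replicate 3 is the array of low Y-linked signal and many marked spots, and the part of either in its members' levels was not tested. The median SD of the members was 0.40, 0.46 and 0.50 in the medium groups of wt, MK2-/- and MK2/3-/- BMDM and 0.18, 0.23 and 0.26 in the LPS groups. Over all genes it was 0.29, 0.35 and 0.25 in medium and 0.33, 0.34 and 0.45 with LPS.

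The size of the LPS response did not pass a test of its difference between genotypes for any member. The count was 0 of 38 for MK2-/- against wt (0% of all genes, 1 member at an unadjusted p below 0.05), 0 for MK2/3-/- against wt (0.679%, 0 members) and 0 for MK2/3-/- against MK2-/- (0.067%, 1 member). The median difference in response was 0.29, 0.08 and −0.13, and without wt medium replicate 4 the first became 0.11 and the second −0.04. Oasl1 had the largest difference, a response 1.66 larger in MK2-/- than in wt BMDM (95% interval 0.12 to 3.21, limma adjusted p = 0.651), and 0.95 larger without that array. Its LPS levels were 17.71, 17.90 and 17.73 in wt, 17.96, 17.70, 17.63 and 18.04 in MK2-/- and 18.05, 17.94, 17.87 and 18.09 in MK2/3-/- BMDM, so the genotypes overlapped there. These tests had wide intervals, which stayed within 2-fold for 18 of 38 members in each comparison with wt and for 16 between the knockouts.

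Herc6, chosen after its values were seen, was the member for which another probe gained calls between genotypes. Its main probe read 13.24, 13.04 and 12.85 in wt LPS and 12.77, 12.89, 12.72 and 13.02 in MK2-/- LPS. The second probe, which carries the same accession, read 13.37, 13.89 and 14.24 in wt, 11.57, 11.82, 11.65 and 12.65 in MK2-/- and 12.77, 13.04, 13.06 and 13.49 in MK2/3-/- LPS. For that probe no MK2-/- array reached the wt arrays. Relative to wt, it was lower in MK2-/- BMDM, by a difference of −1.91 with LPS (limma adjusted p = 0.000925) and −1.41 in medium (limma adjusted p = 0.00532). It was 1.17 higher in MK2/3-/- than in MK2-/- BMDM with LPS (limma adjusted p = 0.00583). Its LPS response was 5.15 in wt, 4.65 in MK2-/- and 5.08 in MK2/3-/- BMDM, next to 4.47, 4.78 and 4.71 for the main probe.

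Of 19 genes of the pathway that leads to these members, 11 were higher and 4 lower with LPS in wt BMDM, 12 higher and 3 lower in MK2-/-, and 12 higher and 4 lower in MK2/3-/- BMDM (limma, against the same shares of all genes as above). Ifnb1 read 3.73, 4.59, 2.04 and 4.64 in wt medium and 10.79, 10.89 and 12.89 in wt LPS. With LPS it read 8.90, 7.41, 8.76 and 9.68 in MK2-/- and 9.77, 8.45, 10.07 and 10.70 in MK2/3-/- BMDM, so every knockout array lay below every wt array. In medium Ifnb1 was above background on 2 of 4 wt, 1 of 4 MK2-/- and 1 of 3 MK2/3-/- arrays, so its medium values are uncertain. Ifnb1 rose in each genotype, and the fitted differences of 7.77, 4.74 and 6.74 rest on those medium values. Relative to wt, Ifnb1 under LPS was lower in MK2-/- BMDM, a difference of −2.84 (95% interval −4.39 to −1.28, limma adjusted p = 0.0217), and its difference in MK2/3-/- BMDM was −1.78 (−3.33 to −0.22, limma adjusted p = 0.09). The difference of its response between MK2-/- and wt was −3.04 (limma adjusted p = 0.456) and has the same limit. On the same LPS arrays no member passed the test between genotypes by its main probe. The second Herc6 probe did pass, with −1.91 between MK2-/- and wt BMDM (limma adjusted p = 0.000925).

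Some interferon alpha genes differed between genotypes as well. Ifna2 was lower in MK2-/- than in wt LPS (6.43 ± 0.26 against 7.58 ± 0.40) and Ifna4 higher (5.19 ± 0.63 against 3.27 ± 1.16, where it was above background on 1 of 3 wt arrays). In MK2/3-/- LPS, Ifna4 (5.07 ± 0.47) and Ifna5 (8.59 ± 0.58 against 7.46 ± 0.84 in wt) were higher. Ifna2 was higher in MK2/3-/- than in MK2-/- BMDM with LPS (8.08 ± 0.33 against 6.43 ± 0.26) and in medium (7.33 ± 0.12 against 6.36 ± 0.07). In wt medium it averaged 6.83 ± 0.41. With LPS, Ifna5 was also higher in MK2/3-/- than in MK2-/- BMDM (6.79 ± 0.43 in the latter). The receptor gene Ifnar1 was lower there (12.10 ± 0.15 against 12.93 ± 0.57). For Ifna4 and Ifna5 the means differed from wt in the same direction in medium, where neither gene passed a test between genotypes. Ifna5 averaged 7.90 ± 0.23 in MK2/3-/- and 6.74 ± 0.25 in wt medium. Ifna4 averaged 4.72 ± 0.65 in MK2-/-, 4.52 ± 0.12 in MK2/3-/- and 3.76 ± 0.43 in wt medium. Neither Ifna4 nor Ifna5 passed the test for the LPS response in any genotype. Interferon alpha genes are close copies of each other, and cross-hybridisation was not tested. Ticam1, the adaptor TRIF, was higher in both knockouts with LPS (11.47 ± 0.28 and 11.63 ± 0.19 against 10.80 ± 0.23).

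Of the factors that act on the ISRE, Irf7 rose by 3.50, 3.95 and 4.64 in wt, MK2-/- and MK2/3-/- BMDM, and Stat2 by 2.60, 2.98 and 2.75. Irf9 rose by 0.52 in wt and 0.47 in MK2-/- BMDM, and its value of 0.14 in MK2/3-/- BMDM did not pass the test. Irf3 was lower with LPS in each genotype, with responses of −1.08, −1.11 and −1.10. None of the 19 pathway genes passed the test for a difference in LPS response.

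**Figure D4:**
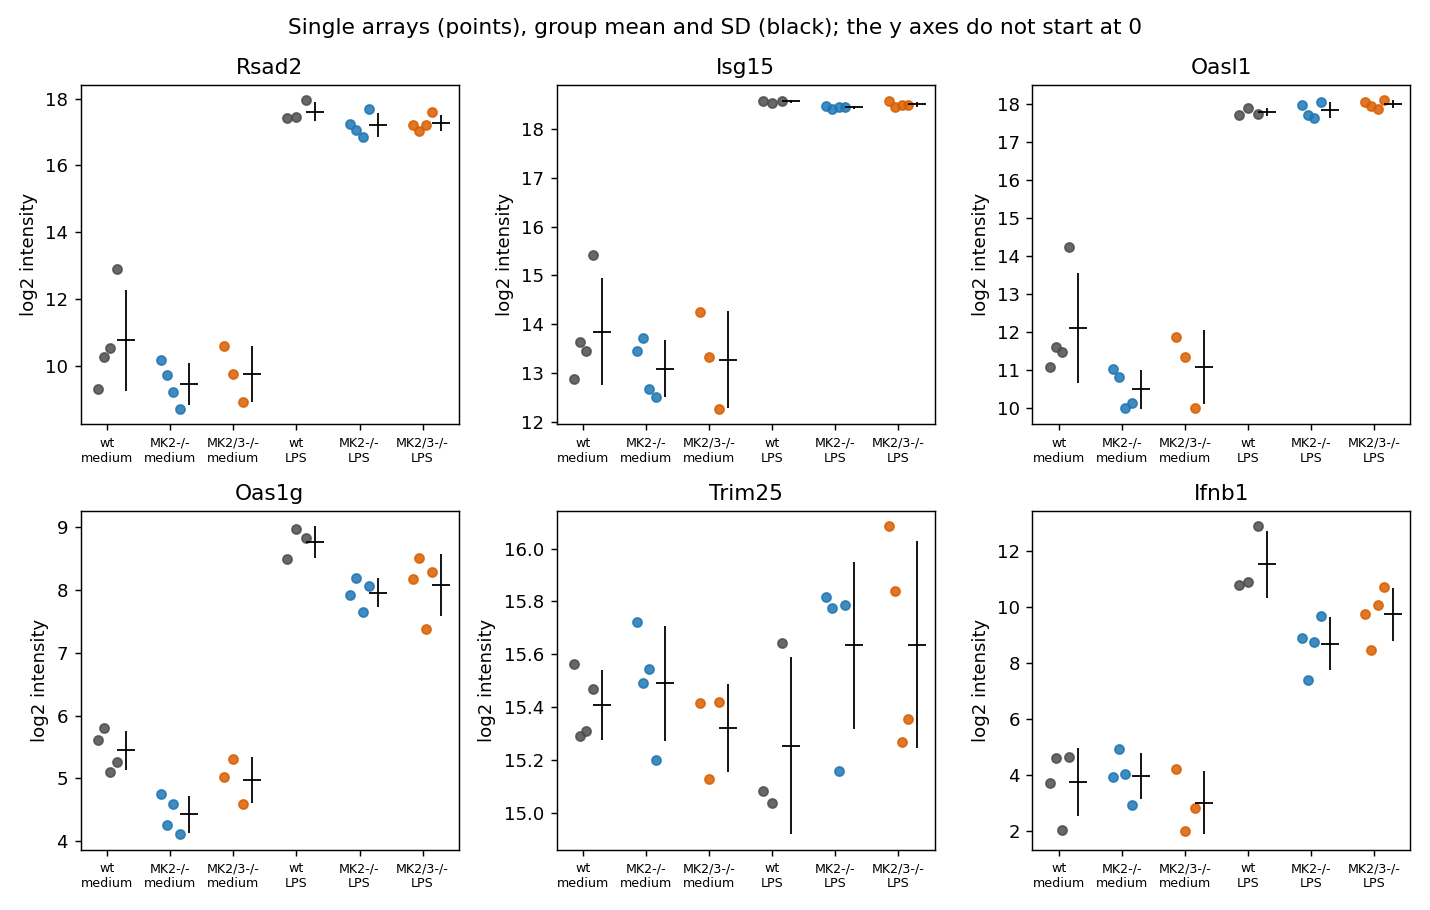
Points are the log2 intensities of single arrays for 5 members and for Ifnb1 in the 6 groups, with the group mean and SD in black; the y axes differ between panels and do not start at 0. Ifnb1 is lower in all knockout LPS arrays than in wt, Oas1g is lower in all MK2-/- LPS arrays than in wt, and for Rsad2, Isg15 and Oasl1 wt medium replicate 4 lies above the other medium arrays.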

How the data were processed

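RNA of 22 cultures was hybridised to single-colour Agilent arrays, 1 array per culture. The deposited scanner files of the authors hold spot intensity, and the processed signal in them is already background-corrected by the scanner software. The authors' deposited table holds log2 values after quantile normalisation, used here as an alternative. Array number, not read depth, limits the precision.

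Spots marked as outliers and control spots were left out, log2 processed signals of the other spots were quantile normalised over all arrays, and spots of 1 probe were then averaged. Probes carrying an NCBI accession were kept if well above background on at least 3 of the 22 arrays, whatever their group (28098 probes, 22378 genes). A gene was represented by the probe of highest mean signal. Accessions were matched to symbols through a RefSeq table. All arrays entered 1 linear model with 6 group means (limma 3.58.1 in R 4.3.3, two-sided, Benjamini-Hochberg over all genes, threshold 0.05) and was tested on simulated data. Intervals are 95% intervals of that fit, not adjusted for the number of genes.

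The members and all gene lists were chosen with earlier results of these data known. Results of 1 gene that the pathway counts include are not reported here. Every member is named, and values of all arrays are given for the 3 largest and 3 smallest responses in wt and for members called between genotypes. Other members shown array by array were chosen after their values were seen. Alternatives were 75th percentile scaling, normexp background correction, the deposited table, no filter, another probe per gene, the methods' t-test, fits to the compared groups alone, array weights, replicate blocks, a 2-fold minimum, leaving out both arrays of low Y-linked signal, and leaving out each array in turn.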

Additional observations from a re-analysis of the deposited data

Results flagged for a closer look

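In 152 groups of 4 arrays, each a member in 1 group, 12 had a highest or lowest array whose gap to its neighbour was too large a part of the range by Dixon's test at the 95% level. Chance gives such a gap in about 1 in 20 groups. On MK2-/- LPS replicate 3, Oasl2 (15.78, next array 16.40), Trim25 (15.16, next 15.77), Parp12 (13.35, next 13.60) and Xaf1 (15.00, next 15.53) stood below the rest of their group. On MK2-/- LPS replicate 4, Dhx58 (14.66, next 14.33) and Ifit3 (17.36, next 16.84) stood above it. On wt medium replicate 4, Oasl1 (14.23, next 11.62) and Isg20 (12.89, next 11.08) stood above the other cultures. On MK2/3-/- LPS replicate 3, Rtp4 was low (16.63, next 17.10) and Ifi35 high (15.43, next 15.06). Samd9l was high on MK2/3-/- LPS replicate 1 (16.17, next 15.68), and Eif2ak2 was high on MK2-/- medium replicate 1 (10.40, next 9.67).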

How the results depend on the processing

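The LPS responses gave 37 to 38 calls of 38 under every alternative, and 37 to 37 when any 1 array was left out. With LPS, the count for MK2-/- against wt (0) became 1 with normexp, the deposited table, array weights and the replicate block by title number (Oas1g each time), 1 with the probe of largest response (Herc6), and 4 with the unadjusted methods' t-test (Ddx58, Oas1g, Isg15 and Usp18). It ranged from 0 to 1 without 1 array, with Oas1g called without MK2/3-/- LPS replicate 2 or 3. MK2/3-/- against wt (0) became 1 with 75th percentile scaling (Trim21), normexp and the replicate block by title number (Oas1g both times) and the adjusted t-test (Usp18), and 7 with the unadjusted t-test. It ranged from 0 to 1, with Oas1g called without MK2/3-/- LPS replicate 2. MK2/3-/- against MK2-/- (0) became 1 with the probe of largest response (Herc6) and 2 with the unadjusted t-test (Ifit2 and Usp18), with 0 to 0 without 1 array. In medium, MK2-/- against wt (1) became 0 with normexp and the adjusted t-test, 4 with the unadjusted t-test, and 2 with 75th percentile scaling (Oasl1 and Sp100), the probe of largest response (Oas1g and Herc6), and array weights and the replicate block by title number (Oas1g and Oasl1 both times). It ranged from 0 without MK2-/- medium replicate 2 to 2 without MK2/3-/- medium replicate 3 (Oas1g and Oasl1). MK2/3-/- against MK2-/- in medium (0) became 3 with the unadjusted t-test (Parp12, Sp100 and Tor3a) and ranged from 0 to 1 (Tor3a, without MK2/3-/- medium replicate 3). The remaining counts ranged from 0 to 0. The cause of these changes was not tested. Of 10 same-numbered pairs, 7 correlated above 0.1 in their deviations from the group means (−0.09 to 0.37), and of 10 same-letter pairs 7 did (−0.09 to 0.42), all of the same age, against 6 of 30 pairs of other letters. Both arrays of low Y-linked signal share a letter and a number. No label says that either marks a shared experiment and not every pair correlated, so a pairing was not assumed. A replicate block by the letter of the array name left every count within 1.5 times.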
